A study of Mus with 9 samples.

Results

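Sox21, Fbln1, Anpep, Gprc5c, Dtna, Nfib, Prtg and Kcnj3 are 8 of the 54532 genes counted in mouse bone marrow cells. They were chosen by their counts: each was near 0 in the 3 libraries labelled Vec and well expressed in the 3 labelled CCND2wt. The 3 libraries labelled CCND2mut had no part in that choice. The difference between CCND2wt and Vec is therefore given as a description with no test. "Ectopic" is used for these genes only in the sense that they were nearly absent from Vec marrow; untreated marrow was not analysed here.

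All 3 groups came from lethally irradiated C57BL/6 mice that were given 100000 mCherry+ GFP+ donor cells with supportive cells. The donors of every group, Vec included, were fetal liver cells of embryonic day 12.5 from a conditional AML1-ETO knock-in mouse, in which the fusion carries an mCherry tag. AML1-ETO joins RUNX1 to RUNX1T1 in a subtype of acute myeloid leukaemia, and the series describes this mouse as a pre-leukaemic myeloproliferative model. The donor cells had been infected with the MSCV-IRES-EGFP retrovirus, which held cyclin D2 with the change Thr280Ala (CCND2mut), unchanged cyclin D2 (CCND2wt) or no insert (Vec). The age of the mice, the driver of the conditional allele and any sorting of the marrow are not stated in the labels, so that recipient and supportive cells may be present. Whether each library is a different animal is not stated in the labels, and the p-values therefore measure only the spread between these samples.

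The 8 genes encode proteins of unrelated classes, most of them best known outside adult blood. Sox21 and Nfib are transcription factors: Sox21 has the HMG box of the SOX family and acts in neural progenitors, and Nfib, a nuclear factor I protein, acts in lung and brain development. Fbln1 (fibulin 1) is secreted into the extracellular matrix and basement membranes. Anpep (CD13) is a membrane peptidase of intestinal and kidney brush border that is also found on myeloid cells. Gprc5c is an orphan G protein-coupled receptor. Prtg (protogenin) is an immunoglobulin-type membrane protein of the neural tube and early embryo. Dtna (dystrobrevin alpha) belongs to the dystrophin complex of muscle and synapses. Kcnj3 is a subunit of the G protein-gated potassium channels of heart and brain.

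Total counts were 15043755 to 17593634 per library. A count of 0 allows up to 3 reads, or 0.159 to 0.204 CPM (read counts scaled by library size and TMM factors) depending on the library. The mouse gene named in the labels, Ccnd2, stood at 12.6, 58.2 and 51.1 CPM in CCND2mut 1, 2 and 3, at 7.30, 9.29 and 11.1 CPM in CCND2wt 2, 3 and 4, and at 76.2, 79.1 and 86.2 CPM in Vec 1, 2 and 4. Both groups labelled with added cyclin D2 were thus below Vec, and no source used here states the species of the transgene. Groups are accordingly called by their labels, and a direction below is one between labelled libraries. The blood cell markers Ptprc, Spi1, Cd34, Kit, Mpo, Elane, Laptm5 and Coro1a were counted in every library, and their summed level was 3556 to 7865 CPM in CCND2mut, 3699 to 4067 CPM in CCND2wt and 4176 to 4516 CPM in Vec.

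In all, the 8 genes took 1154 reads in the CCND2mut libraries together, 22451 in CCND2wt and 26 in Vec. The last number was spread over 15, 5 and 6 reads in Vec 1, 2 and 4, and no gene had more than 5 reads in a Vec library. All 8 had a read in each CCND2wt library, with at least 105. Of the 8, 3 had no read in any CCND2mut library. In bulk marrow, fewer cells of a type and less RNA per cell cannot be told apart.

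The transcription factor Sox21 (ENSMUSG00000061517; chromosome 14, 118233232 to 118237030, minus strand, mm10) had 0 reads in each of CCND2mut 1, 2 and 3. It had 92.7, 76.9 and 105 CPM in CCND2wt 2, 3 and 4, and 0, 0.0679 and 0.0641 CPM in Vec 1, 2 and 4, where the nonzero values are 1 read each. Per kilobase of the gene length in the file, its CCND2wt level was 24.1 CPM per kilobase (RPKM), above 84.6% of the 12701 tested protein-coding genes. The other transcription factor, Nfib (ENSMUSG00000008575; chromosome 4, 82290173 to 82705750), was present in all CCND2mut libraries. It had 5.77, 7.68 and 13.9 CPM in CCND2mut 1, 2 and 3, 45.2, 53.9 and 51.2 CPM in CCND2wt 2, 3 and 4, and 0.181, 0.204 and 0 CPM in Vec 1, 2 and 4. No library of one group overlapped another group for Nfib, while CCND2mut and Vec were both at the detection limit for Sox21.

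The matrix protein Fbln1 (ENSMUSG00000006369; chromosome 15, 85205949 to 85286535) stood at 2.61, 2.34 and 4.98 CPM in CCND2mut 1, 2 and 3, at 26.7, 31.8 and 30.2 CPM in CCND2wt 2, 3 and 4, and at 0.0604, 0 and 0 CPM in Vec 1, 2 and 4. Its 3 groups were separate, with CCND2mut between the others. Anpep (ENSMUSG00000039062; chromosome 7, 79821803 to 79861059) was the most abundant of the 8 in CCND2wt. It had 1.88, 30.6 and 5.18 CPM in CCND2mut 1, 2 and 3, 116, 125 and 135 CPM in CCND2wt 2, 3 and 4, and 0.302, 0 and 0.128 CPM in Vec 1, 2 and 4. CCND2mut 2 stood 16.3 times above CCND2mut 1, the widest spread among the members with reads in all 3 CCND2mut libraries, and was still below every CCND2wt library.

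Of the other membrane proteins, the receptor Gprc5c (ENSMUSG00000051043; chromosome 11, 114851152 to 114872617) had 0 reads in all 3 CCND2mut libraries. It stood at 64.0, 78.2 and 85.1 CPM in CCND2wt 2, 3 and 4, and at 0.181, 0 and 0.192 CPM in Vec 1, 2 and 4, where it had 6 reads in all. Prtg (ENSMUSG00000036030; chromosome 9, 72806874 to 72917291) was low throughout. It had 0.0607, 0.668 and 0.199 CPM in CCND2mut 1, 2 and 3, from 1, 10 and 3 reads, 9.42, 7.48 and 7.81 CPM in CCND2wt 2, 3 and 4, and 0.0604, 0 and 0 CPM in Vec 1, 2 and 4. CCND2mut 1 and Vec 1 had a single Prtg read each, so that these groups met at their edge.

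Dtna (ENSMUSG00000024302; chromosome 18, 23415135 to 23659715) had no read in any CCND2mut library. It had 22.7, 24.6 and 23.9 CPM in CCND2wt 2, 3 and 4, and 0.121, 0 and 0 CPM in Vec 1, 2 and 4. The channel subunit Kcnj3 (ENSMUSG00000026824; chromosome 2, 55435970 to 55598145) had 1 read in CCND2mut 1 and none in CCND2mut 2 and 3. Its level was 7.25, 6.51 and 5.78 CPM in CCND2wt 2, 3 and 4, and its only Vec read lay in Vec 2 (0.0679 CPM). For both genes, CCND2mut and Vec could not be told apart at this depth.

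**Figure D1:**
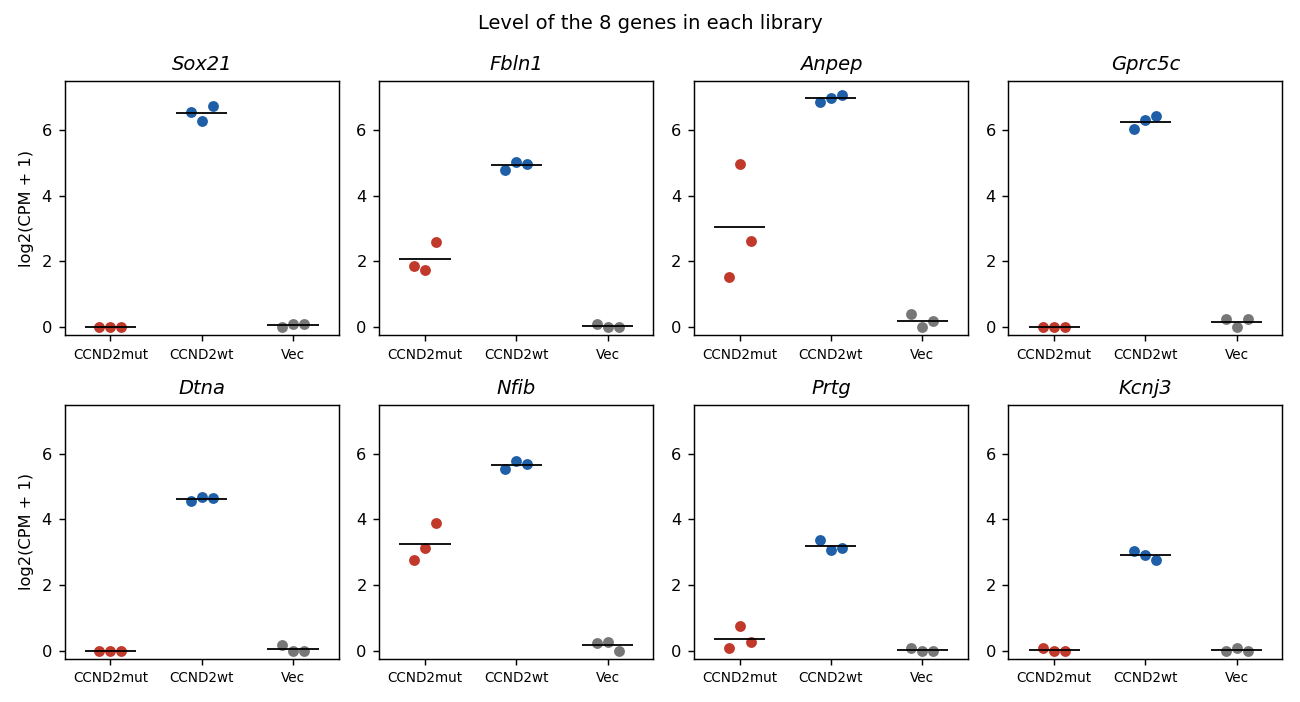
Levels of the 8 genes as log2(CPM + 1) in each library; points are libraries, lines are group means. All CCND2wt points lie above all points of CCND2mut and Vec; Nfib, Fbln1 and Anpep also have CCND2mut points above every Vec point, while Sox21, Gprc5c and Dtna lie at 0 in CCND2mut.

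As a description of the choice, the reads summed over the group were 2148-fold higher in CCND2wt, after scaling to library size, than in Vec for Sox21 (95% counting interval 594 to 17740) and 1385-fold for Fbln1 (248 to 54730). The ratio was 837 for Anpep (406 to 2083), 591 for Gprc5c (271 to 1611), 557 for Dtna (154 to 4601), 391 for Nfib (179 to 1066), 387 for Prtg (69.2 to 15330) and 306 for Kcnj3 (54.6 to 12120). Intervals cover counting error only, and with 1 to 7 Vec reads behind each ratio they overlap for all 8. All 8 passed the filter on low counts with every library in the fit. With only CCND2mut and Vec in it 3 did (Nfib, Fbln1 and Anpep), so that the other 5 passed through CCND2wt, where they are high.

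Within CCND2wt the 8 levels were steady. The coefficient of variation over CCND2wt 2, 3 and 4 was 4.15% for Dtna, the lowest, and 15.3% for Sox21, the highest, with a median of 10.1%. The 8005 tested protein-coding genes in the same range of CCND2wt levels had a median of 17.0% in CCND2mut, 5.99% in CCND2wt and 15.2% in Vec. CCND2wt libraries were thus closer to one another than those of the other groups over genes of this level, and the members varied somewhat more than the median gene there. Per length, Anpep led with 30.2 RPKM in CCND2wt (percentile 88.4 of tested protein-coding genes), followed by Sox21 (24.1), Gprc5c (14.4), Fbln1 (6.77), Nfib (3.35), Dtna (1.40), Kcnj3 (1.25) and Prtg (0.899). Of the neighbours in this order, Dtna and Kcnj3 overlapped over their CCND2wt libraries (1.34 to 1.46 RPKM for Dtna and 1.11 to 1.39 RPKM for Kcnj3). The lowest Anpep library (27.9 RPKM) lay just above the highest Sox21 library (27.6 RPKM).

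CCND2mut marrow was then set beside CCND2wt marrow. The lowest CCND2wt library lay above the highest CCND2mut library for all 8 genes. The CCND2wt values are those by which the genes were chosen as high, so the lower level in CCND2mut is given as a description. That 8 of 8 were called lower by edgeR, where 47% of all tested genes passed and 23.8% were lower, was favoured by the choice, and nothing is read from it. The genes differed in how far below CCND2wt they stood. Nfib stood at 18.2% of its CCND2wt mean, Fbln1 at 11.2% and Anpep at 10.03%. Prtg stood at 3.75% and Kcnj3 at 0.311%, and Sox21, Gprc5c and Dtna at 0.

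For the first 3 of these the fitted change of CCND2mut against CCND2wt was -2.46 on the log2 scale for Nfib (SE 0.405), -3.16 for Fbln1 (SE 0.376) and -3.32 for Anpep (SE 0.871). It was -4.72 for Prtg (SE 0.697). Kcnj3 had 1 read in CCND2mut against 357 in CCND2wt, which is 303-fold lower (95% counting interval 54.1 to 12020). With a floor of 3 reads over the group, Sox21 was 1420-fold lower in CCND2mut, Gprc5c 1172-fold and Dtna 368-fold. Their 95% counting intervals ran upwards from 1155, 952.9 and 298.8. Without CCND2mut 2 the fitted change was -5.18 for Anpep and -5.96 for Prtg. For Kcnj3 it was -7.81 with all libraries. Without CCND2mut 1 Kcnj3 had no CCND2mut read left, so that its fitted -9.75 is not a measured fold.

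**Figure D2:**
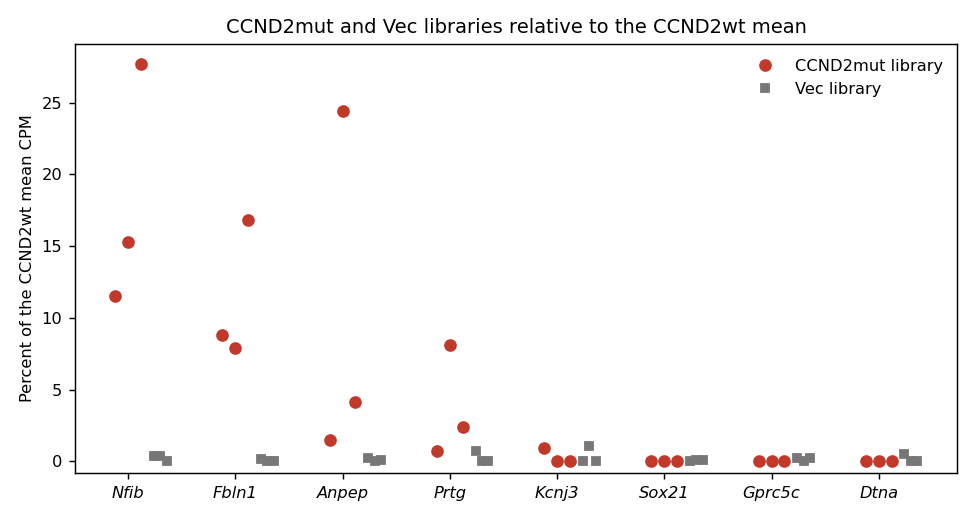
CPM in each CCND2mut library (circles) and Vec library (squares) as percent of the CCND2wt mean of the same gene. CCND2mut reaches 27.7% for Nfib in CCND2mut 3 and 24.4% for Anpep in CCND2mut 2, and 0 for Sox21, Gprc5c and Dtna in all 3 libraries.

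Against Vec, the comparison was read for Fbln1, Nfib and Anpep, which passed the filter without CCND2wt. All 3 were higher in CCND2mut, where 51.8% of all tested genes passed, 24.9% higher and 26.9% lower. The Vec libraries were those in which the genes had been chosen as low, which favours this direction. Fbln1 had 153 reads in CCND2mut against 1 in Vec (ratio 154, 95% counting interval 27.3 to 6133; edgeR adjusted p = 9.22e-05). Nfib had 419 against 6 reads (ratio 70.4, interval 32.1 to 193; edgeR adjusted p = 0.000118), and Anpep 567 against 7 (ratio 81.7, interval 39.4 to 204; edgeR adjusted p = 0.00396). These 3 calls held when any single library was left out. The choice favours that as well, so the p-values and their persistence are given as a description.

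The other 5 genes are given by their reads alone, since they passed the filter only through CCND2wt. Prtg had 14 reads in CCND2mut, 10 of them in CCND2mut 2, against 1 in Vec (ratio 14.1, 95% counting interval 2.15 to 597). The interval leaves out the spread between libraries, and CCND2mut 1 and Vec 1 had 1 read each. Gprc5c had 0 reads in CCND2mut against 6 in Vec, as 3, 0 and 3 in Vec 1, 2 and 4. No Vec library was thus above the 3 reads that a count of 0 allows. Sox21, Dtna and Kcnj3 had at most 2 reads in either group. No fold is given for these 4 genes. For Anpep the fitted change, 6.33 on the log2 scale, was 4.49 without CCND2mut 2 and 7.43 without Vec 1. For Fbln1 it was 6.84. Vec 1 holds its only Vec read, so that the fitted 8.76 without Vec 1 is not a measured fold.

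Markers of other cell types were set beside these levels. The mast cell list (Cpa3, Mcpt4, Cma1, Tpsb2, Fcer1a, Ms4a2, Hdc and Mrgprb1) summed to 1550, 14650 and 3386 CPM in CCND2mut 1, 2 and 3, to 16440 to 17200 CPM in CCND2wt and to 7199 to 9955 CPM in Vec. It was highest in CCND2wt, and within CCND2mut it was highest in CCND2mut 2, as Anpep was. Of its 7 tested genes 4 were higher and 0 lower in CCND2wt than in Vec by edgeR, beside 9.71% and 9.05% of all tested genes. Most of the Vec sum was Cpa3, with means of 3441, 8446 and 7716 CPM in CCND2mut, CCND2wt and Vec. The mast cell protease Mcpt4 had 31.6, 258 and 34.3 CPM in CCND2mut 1, 2 and 3, 674 to 700.2 CPM in CCND2wt and 3.26 to 16.5 CPM in Vec. The tryptase Tpsb2 had 35.0, 619 and 44.3 CPM in CCND2mut 1, 2 and 3, 633 to 667 CPM in CCND2wt and 5.37 to 20.6 CPM in Vec. Both were low in Vec, high in CCND2wt and between in CCND2mut, with CCND2mut 2 highest there, as Anpep was. The rest of the list was mixed. In CCND2mut, CCND2wt and Vec, Hdc averaged 2198, 502 and 138 CPM, and Cma1 459, 6242 and 446 CPM. In the same order, Fcer1a averaged 4.19, 100.5 and 8.72 CPM, Ms4a2 84.6, 152 and 56.1 CPM, and Mrgprb1 0.538, 0.0176 and 0.187 CPM. The part of mast cells in the members' levels was not tested.

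The neural list held 18 genes, 10 of which had no read in CCND2wt, Sox1, Sox2, Neurod1 and Dcx among them. It summed to 2.40 to 8.17 CPM in CCND2mut, 11.1 to 12.5 CPM in CCND2wt and 5.03 to 12.2 CPM in Vec. Of its 3 tested genes, the neuronal tubulin Tubb3 was higher in CCND2wt than in Vec by edgeR (3.93 on the log2 scale), with means of 1.16, 1.41 and 0.0855 CPM in CCND2mut, CCND2wt and Vec. Nes, an intermediate filament gene of progenitors, averaged 2.17, 8.73 and 4.08 CPM and did not pass (edgeR adjusted p = 0.308). Gfap, also tested, averaged 0.446, 1.02 and 2.99 CPM and did not pass (-1.56, edgeR adjusted p = 0.377). The fibroblast and stroma list of 12 genes had its lowest sum in CCND2wt. It summed to 39.2 to 64.0 CPM in CCND2mut, 19.7 to 23.1 CPM in CCND2wt and 73.7 to 97.9 CPM in Vec, and Pdgfra, Col3a1, Lum, Pdpn and Col6a3 had no read in CCND2wt. The pericyte receptor Pdgfrb made up most of this sum in CCND2wt and Vec, with means of 22.6, 20.1 and 71.8 CPM in CCND2mut, CCND2wt and Vec. Of the list's 4 tested genes it alone passed in CCND2wt against Vec by edgeR, where 9.05% of all tested genes were lower and 9.71% higher. In the same order of groups, Col1a1 averaged 12.4, 0.236 and 1.32 CPM, Thy1 14.3, 0.24 and 3.17 CPM, and Cxcl12 1.43, 0.413 and 5.25 CPM. Sums for muscle were 3.10 to 8.95, 3.30 to 3.65 and 1.73 to 4.48 CPM in CCND2mut, CCND2wt and Vec. Those for epithelium and brush border were 3.64 to 16.8, 3.80 to 4.79 and 6.35 to 10.6 CPM. The endothelial list of 7 genes summed to 421 to 597 CPM in CCND2mut, 556 to 588 CPM in CCND2wt and 320 to 367 CPM in Vec, mostly Pecam1. In CCND2mut against CCND2wt 4 of its 6 tested genes were lower (Tek, Kdr, Emcn and Plvap) and Pecam1 was higher. Of all tested genes 23.8% were lower and 23.2% higher in that comparison. The angiopoietin receptor Tek averaged 1.13 CPM in CCND2mut, 200.1 CPM in CCND2wt and 32.8 CPM in Vec, and the VEGF receptor Kdr 0.526, 14.8 and 1.48 CPM in the same order. Emcn averaged 0.0202, 21.8 and 6.74 CPM, and Plvap 0.625, 9.80 and 2.94 CPM. In CCND2wt against Vec, Plvap passed (1.74 on the log2 scale, edgeR adjusted p = 0.0379), and Tek (2.61, 0.0656), Kdr (3.31, 0.068) and Emcn (1.70, 0.104) did not. Vwf went the other way without passing (-1.62, 0.167), with means of 0.499, 1.17 and 3.60 CPM in CCND2mut, CCND2wt and Vec. Cdh5 was not tested and averaged 1.44, 0.49 and 0.293 CPM in the same order. The part of endothelial cells in the members' levels was not tested. The bone-forming list, of which only Runx2 was tested and fell in CCND2wt against Vec (-0.66), summed to 186 to 212, 130 to 149 and 171 to 291.5 CPM. Sums of red cell genes were 31.4 to 272, 1036 to 1242 and 139 to 15880 CPM, and those of B cell genes 23.0 to 79.1, 31.9 to 36.6 and 91.5 to 1212 CPM, both highest in Vec 1.

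Close relatives of the 8 proteins were examined to see whether whole families had moved. Of 62 relatives in the file, 30 were tested and 22 had at most 3 reads in every library. In CCND2wt against Vec 5 rose and 1 fell, 20% of those tested, beside 18.8% of all tested genes (9.71% higher, 9.05% lower), with a median log2 fold change of 0.11 for the relatives and -0.04 for all tested genes. In CCND2mut against Vec 8 rose and 9 fell, 56.7% beside 51.8%. Both shares are near their background, and both comparisons use the same 3 Vec libraries.

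The SOXB relatives of Sox21 had almost no reads. Sox2 and Sox14 had no read in any library, and Sox1 and Sox3 had at most 2 in a library, so that none was tested. The nuclear factor I relatives of Nfib were abundant in all groups. Nfic averaged 112 ± 30.6 CPM in CCND2mut, 191.5 ± 13.6 in CCND2wt and 190.3 ± 37.4 in Vec (SD, n = 3 each), and Nfix 72.1 ± 13.8, 142 ± 2.08 and 140 ± 25.9 CPM in the same order. Both fell in CCND2mut against Vec, Nfic by 0.77 and Nfix by 0.95 on the log2 scale (edgeR adjusted p = 0.0133 and 0.00234). Nfia averaged 4.45 ± 4.09, 11.0 ± 1.36 and 6.12 ± 2.001 CPM and passed in neither comparison. In CCND2wt against Vec 0 of these 3 passed in edgeR, DESeq2 or limma-voom, and 0 had an unadjusted p under 0.05.

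Among the matrix relatives of Fbln1, Efemp2 (fibulin 4) averaged 4.64 ± 2.88 CPM in CCND2mut, 3.46 ± 0.578 in CCND2wt and 0.846 ± 0.278 in Vec. It rose by 2.44 in CCND2mut (edgeR adjusted p = 0.00403; 1.83 without CCND2mut 2). It rose by 2.02 in CCND2wt (adjusted p = 0.0267), a call lost without any 1 of the Vec or CCND2wt libraries (0.0521 to 0.0956). Hmcn2 rose by 2.12 in CCND2mut against Vec (adjusted p = 0.00339). The 5 untested relatives had at most 16 reads in a library. One of them, Hmcn1, had no read in CCND2mut, 8, 15 and 16 reads in CCND2wt 2, 3 and 4, and 3, 0 and 2 in Vec 1, 2 and 4.

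The M1 aminopeptidases related to Anpep that were tested had reads in every group, and 0 of the 7 tested passed in CCND2wt against Vec (edgeR, DESeq2 and limma-voom; at an unadjusted p under 0.05 edgeR and limma-voom gave 0 and DESeq2 gave 1). In CCND2mut, Npepps rose by 0.88 and Lta4h, which makes leukotriene B4, by 1.31 (edgeR adjusted p = 0.00269 and 0.0112). 2010111I01Rik fell by 0.89 (adjusted p = 0.00397), and Rnpepl1 by 0.39 (adjusted p = 0.0434, up to 0.141 with a library left out, and lost in 7 of 9 such fits).

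The 2 tested relatives of Gprc5c had their highest levels in different groups. Gprc5b had 9.47, 105 and 66.7 CPM in CCND2mut 1, 2 and 3, 0.0529, 0.283 and 0 CPM in CCND2wt 2, 3 and 4, and 0.543, 4.21 and 3.59 CPM in Vec 1, 2 and 4. It rose by 4.45 in CCND2mut against Vec (SE 1.01, edgeR adjusted p = 0.0067; 3.78 without CCND2mut 2). Gprc5a had 1.21, 0 and 0.0664 CPM in CCND2mut 1, 2 and 3, 7.99, 24.4 and 8.42 CPM in CCND2wt 2, 3 and 4, and 1.09, 2.38 and 0.962 CPM in Vec 1, 2 and 4. In CCND2wt against Vec neither passed in edgeR (adjusted p = 0.0601 for Gprc5a and 0.0524 for Gprc5b; both at an unadjusted p under 0.05), while DESeq2 called both and limma-voom 1. Gprc5c was thus high in CCND2wt, as Gprc5a was, and Gprc5b in CCND2mut.

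The dystrophin complex had 10 tested relatives of Dtna. In CCND2wt against Vec, 3 rose and 1 fell, beside 9.71% and 9.05% of all tested genes. Sgce, a sarcoglycan, averaged 21.4 ± 3.27 CPM in CCND2mut, 56.2 ± 1.45 in CCND2wt and 20.7 ± 3.01 in Vec, and rose by 1.44 in CCND2wt (edgeR adjusted p = 0.00118). The syntrophin Sntb2 rose by 0.99 in CCND2wt and by 1.67 in CCND2mut (adjusted p = 0.00108 and 2.11e-05). Dag1, the dystroglycan that anchors the complex, rose by 0.69 in CCND2wt and fell by 0.52 in CCND2mut (adjusted p = 0.0175 and 0.021). The other dystrobrevin, Dtnb, averaged 69.1 ± 31.8 CPM in CCND2mut, 10.3 ± 2.14 in CCND2wt and 31.0 ± 2.25 in Vec. It fell by 1.58 in CCND2wt, where Dtna was high, and rose by 1.16 in CCND2mut (adjusted p = 0.0142 and 0.0158).

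In CCND2mut against Vec 2 of these relatives rose and 4 fell, beside 24.9% and 26.9% of all tested genes. Besides Dag1, those that fell were the syntrophin Sntg1 (-6.93, edgeR adjusted p = 0.000688; -5.96 without Vec 2), Sgcb (-2.52, adjusted p = 0.0066; -3.56 without CCND2mut 3) and Utrn (-0.72, adjusted p = 0.0386). Without CCND2mut 1 Sntg1 had no CCND2mut read left, so that its fitted -9.66 is not a measured fold. Several of these calls were lost when a library was left out. In CCND2wt, Dag1 was lost without CCND2wt 2, 3 or 4 (0.0604 to 0.0677), with its log2 fold change at 0.69 to 0.70. Dtnb was lost without CCND2wt 3 or 4 (0.0627 and 0.0636). Without a CCND2wt library 6.21% to 7.27% of all tested genes passed in CCND2wt against Vec, beside 18.8% with all libraries. In CCND2mut, Dag1 was lost without CCND2mut 1 or 3 (0.0536 and 0.0526), Dtnb without Vec 2 (0.0568) and Utrn in 7 of 9 fits with a library left out (up to 0.146).

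Among the neogenin relatives of Prtg only Igdcc4 was tested. It averaged 0.463 ± 0.581 CPM in CCND2mut, 4.64 ± 0.882 in CCND2wt and 4.36 ± 1.53 in Vec, and fell by 3.23 in CCND2mut against Vec (edgeR adjusted p = 0.00771; -5.001 without CCND2mut 3). In CCND2wt against Vec it did not pass in edgeR, DESeq2 or limma-voom, and had an unadjusted p above 0.05 in each. Of 5 tested inward rectifier channels, Kcnj15 rose in CCND2wt, with 0.188 ± 0.182 CPM in CCND2mut, 3.25 ± 0.628 in CCND2wt and 0.214 ± 0.148 in Vec (3.88, SE 0.721, edgeR adjusted p = 0.00914; 4.59 without Vec 4). Kcnj2 rose in CCND2mut against Vec by 3.27 (adjusted p = 0.0066; 4.57 without Vec 1). Kcnj5, whose protein pairs with that of Kcnj3 in heart channels, averaged 0.729 ± 1.26 CPM in CCND2mut, 2.87 ± 0.105 in CCND2wt and 2.62 ± 0.581 in Vec, and passed in neither comparison. With the CCND2wt libraries summed to 1 sample, the fitted changes in CCND2wt against Vec were 3.92 for Kcnj15, 2.06 for Efemp2 and 1.47 for Sgce. They were 1.02 for Sntb2, 0.72 for Dag1 and -1.55 for Dtnb. With 1 CCND2wt sample, calls of relatives are not read from that fit.

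**Figure D3:**
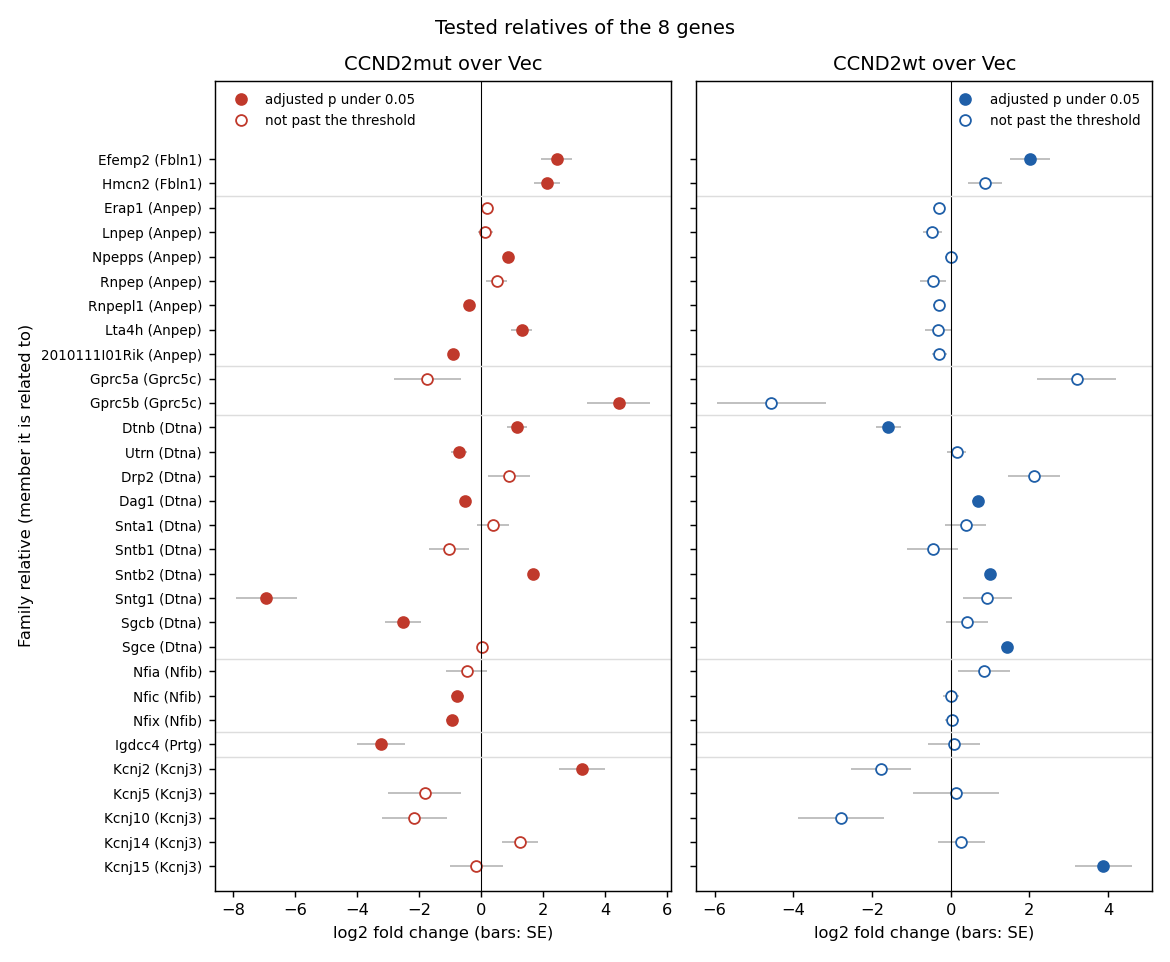
Log2 fold change with its SE for the 30 tested relatives, in CCND2mut over Vec (left) and CCND2wt over Vec (right); filled points passed an edgeR adjusted p of 0.05. In CCND2wt 5 rose and 1 fell, 20% beside 18.8% of all tested genes, and none of the aminopeptidase or nuclear factor I relatives is filled.

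The members lie on 8 different chromosomes, and the genes around them were examined next. Within 500 kb of a member, 89 genes were tested, of which 13 rose and 4 fell in CCND2wt against Vec. Both directions together made 19.1%, beside 18.8% of all tested genes. By direction, 9.71% of all tested genes were higher and 9.05% lower, so that calls near the members leaned more to higher. The 13 include Gm4675, which overlaps Sox21, and the lean was not tested. The nearest protein-coding gene was not higher in CCND2wt by the test at most sites. On the left of Sox21, Fbln1, Gprc5c, Dtna and Kcnj3 these were Gpr180 (70.0 kb away), Ribc2, Gpr142, Nol4 and Galnt13. Ribc2, Gpr142 and Galnt13 had no read in any library and Nol4 had 2 in all. Gpr180 had a log2 fold change of 0.50 (edgeR adjusted p = 0.0505; between 0.0124 and 0.492 over the other settings). On the right, Gm9376 next to Sox21 had no read. Atxn10 next to Fbln1 (0.33), Ap3s2 next to Anpep (0.10), Mapre2 next to Dtna (0.32) and Zdhhc21 next to Nfib (0.06), and Nedd4 to the left of Prtg (0.33), did not pass (edgeR adjusted p from 0.116 to 0.855), although Atxn10 did without Vec 1 (0.52, adjusted p = 0.0171). Nr4a2, the next protein-coding gene right of Kcnj3 at 1509 kb, fell by 2.61 (adjusted p = 0.00988, lost without CCND2wt 2 or 4 at 0.0524 and 0.0538; -1.99 without Vec 2).

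At some sites a neighbour was higher in CCND2wt as well. Mesp2, a transcription factor of somite formation 8.36 kb from Anpep, had 3, 12 and 3 reads in CCND2mut 1, 2 and 3, 28, 31 and 23 in CCND2wt 2, 3 and 4, and 1, 0 and 2 in Vec 1, 2 and 4. It rose by 4.40 in CCND2wt (SE 0.812, edgeR adjusted p = 0.0089; 5.26 without Vec 4), and its highest CCND2mut library was CCND2mut 2, as for Anpep. Pygo1, a coactivator of Wnt signalling 8.35 kb from Prtg, had no read in CCND2mut 1, 2 and 3, 59, 40 and 62 reads in CCND2wt 2, 3 and 4, and 4, 0 and 0 in Vec 1, 2 and 4 (5.002, SE 0.904, edgeR adjusted p = 0.0136). Without Vec 1 Pygo1 had no Vec read left, so that its fitted 8.61 is not a measured fold. The call was lost without CCND2wt 2, 3 or 4 (0.051 to 0.0635).

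On the sides of Nfib, Frem1 and Mpdz were high in CCND2wt. Frem1, a basement membrane protein 192 kb away, had 15, 0 and 7 reads in CCND2mut 1, 2 and 3, 161, 195 and 156 in CCND2wt 2, 3 and 4, and 0, 9 and 0 in Vec 1, 2 and 4 (5.52, edgeR adjusted p = 0.0207). Without Vec 2 Frem1 had no Vec read left, so that its fitted 10.3 is not a measured fold. The call was lost without Vec 4 or any CCND2wt library (0.0593 to 0.0721). Mpdz, a scaffold protein with PDZ domains and the nearest coding gene on the left at 847 kb, had no read in CCND2mut, 293, 284 and 284 reads in CCND2wt 2, 3 and 4, and 18, 11 and 1 in Vec 1, 2 and 4 (4.61, edgeR adjusted p = 0.00955; 5.30 without Vec 1).

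Around Gprc5c, Grin2c, a subunit of the NMDA receptor 377 kb away, averaged 0.827 ± 0.603 CPM in CCND2mut, 7.26 ± 2.14 in CCND2wt and 0.753 ± 0.184 in Vec, and rose by 3.26 (edgeR adjusted p = 0.011). Ttyh2 rose by 1.58 (adjusted p = 0.00443). The myeloid receptors Cd300lb and Cd300a, 50.2 and 17.4 kb away, fell by 3.91 and 2.16 (adjusted p = 0.0207 and 0.026). They were -2.33 and -1.47 without Vec 1, where Cd300a no longer passed (0.0546), and both were lost without CCND2wt 2, 3 or 4 (0.0707 to 0.105). The remaining genes that passed were Abcc4 near Sox21 (1.41), Ticrr (1.96), Fanci (1.72), Prc1 (1.58), Polg (0.87) and Vps33b (-0.91) near Anpep, and Mns1 (1.79), Gm36948 (1.73) and Rfx7 (-0.61) near Prtg, with edgeR adjusted p from 0.0037 to 0.0361. Of these Polg, Vps33b, Mns1, Gm36948 and Rfx7 were lost when a CCND2wt library was left out (highest adjusted p 0.0543 to 0.134), and Gm36948 and Rfx7 also without Vec 2. Ticrr, Fanci and Prc1 act in replication, repair and cytokinesis.

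**Figure D4:**
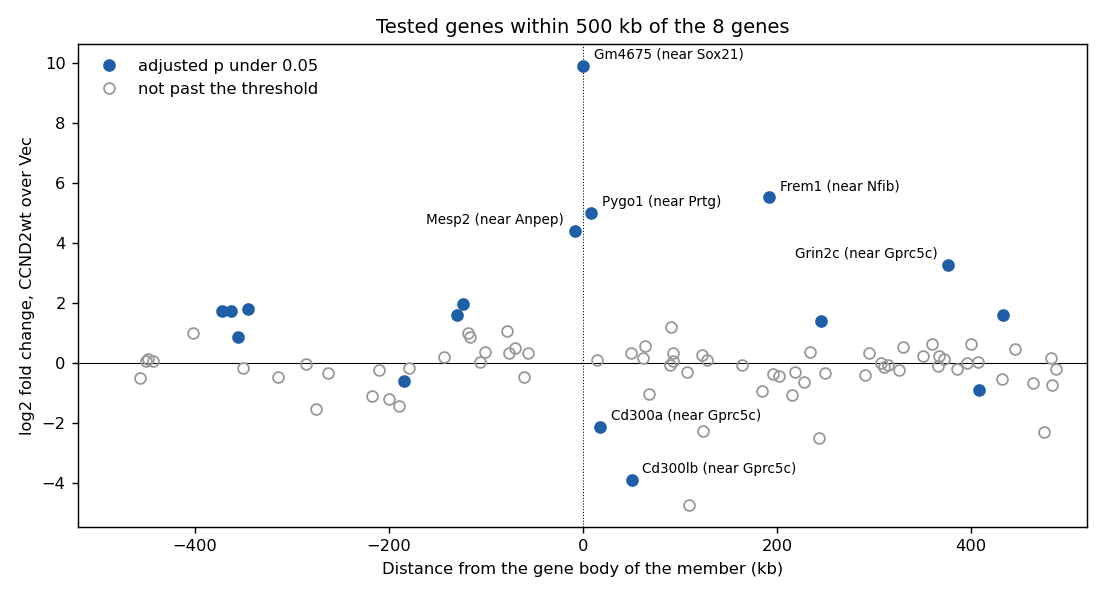
Log2 fold change of CCND2wt over Vec for the 89 tested genes within 500 kb of a member, by distance in kb from its gene body (0 is overlap, negative is towards lower coordinates). Of the points, 13 filled ones are above 0 and 4 below, together 19.1% beside 18.8% of all tested genes (9.71% higher, 9.05% lower). Gm4675, at 0 kb, had no Vec read, so that its fitted height is not a measured fold.

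Genes annotated inside or across the members had reads almost only in CCND2wt. There were 12 such genes, 8 on the opposite strand, with 0 reads in CCND2mut, 513 in CCND2wt and 1 in Vec. Gm4675, a long noncoding RNA whose 5′ part overlaps Sox21 by 799 bases on the opposite strand, had 0 reads in CCND2mut, 131, 142 and 127 in CCND2wt 2, 3 and 4, and 0 in Vec. It passed in CCND2wt against Vec (edgeR adjusted p = 0.00223), and no fold is given because no Vec library had a read. Gm26794, a long noncoding RNA across the start of Kcnj3 on the opposite strand, had 23, 10 and 25 reads in CCND2wt 2, 3 and 4, and Gm44974, within Anpep on the same strand, had 15, 8 and 18. Neither had a read in CCND2mut or Vec. No source used here states the strand setting of the counting, and reads of a member and of a gene that overlaps it cannot be told apart where they overlap.

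The genes whose profile over the 9 libraries was closest to each member, by Euclidean distance of log2(CPM + 1), lay on other chromosomes in all but 1 case among those named here. For Sox21 and Gprc5c they were Cald1 (caldesmon, an actin-binding protein; distance 1.496 and 1.16) and the matrix protein Svep1 (1.86 and 1.57). Cald1 had 0.607, 0.267 and 0.199 CPM in CCND2mut 1, 2 and 3, 54.8, 54.8 and 58.8 CPM in CCND2wt 2, 3 and 4, and 0.241, 0.136 and 0 CPM in Vec 1, 2 and 4. Sox21 and Gprc5c were closer to each other (0.678) than to either. Dtna was closest to 4930452B06Rik (0.857) and Ildr2 (1.06), Prtg to Gm4675 (0.901) and the semaphorin Sema6a (0.904), and Kcnj3 to Frrs1l (0.253), an AMPA receptor partner, and to the BMP receptor Bmpr1b (0.275). Frrs1l had no read in CCND2mut, 6.83, 6.12 and 6.38 CPM in CCND2wt 2, 3 and 4, and 0.204 CPM in Vec 2 alone.

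Fbln1, Anpep and Nfib, which had reads in every CCND2mut library, had less close partners. They were Synm (synemin; 2.13) and Tmem98 (2.41) for Fbln1, the tryptase Tpsg1 (3.43) and the serotonin transporter Slc6a4 (4.32) for Anpep, and the pseudogene Gm9655 (2.46) and the CDK inhibitor gene Cdkn2a (2.82), which lies on the same chromosome, for Nfib. Slc6a4 had 7.83, 143 and 27.4 CPM in CCND2mut 1, 2 and 3, 39.6, 48.2 and 48.4 CPM in CCND2wt 2, 3 and 4, and 0, 0 and 0.0641 CPM in Vec 1, 2 and 4. Like Anpep, it was highest of the CCND2mut libraries in CCND2mut 2, but there it stood above CCND2wt. Cdkn2a had 8.93, 14.7 and 36.7 CPM in CCND2mut 1, 2 and 3, and 17.9, 19.8 and 21.7 CPM in CCND2wt 2, 3 and 4, with at most 0.181 CPM in a Vec library. As for Nfib, its highest CCND2mut library was CCND2mut 3.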

How the data were processed

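RNA of mouse bone marrow cells was extracted with TRIzol and made into libraries with the NEBNext Ultra kit, per the labels' protocols. The authors deposited unnormalized whole-number counts for each gene. The tools named, per the submitters' processing notes, are CASAVA 1.8, fastp, HISAT2 2.0.5, featureCounts 1.5.0-p3 and DESeq2 1.20.0, with build mm10. No source used here states the annotation release or the strand setting. All 9 libraries were fitted with edgeR 4.0.16 (filterByExpr, TMM, robust quasi-likelihood, 6 residual degrees of freedom) in R 4.3.3, with Benjamini-Hochberg adjustment over 15660 genes and a threshold of 0.05. The fit was tested on simulated data with 200 changed genes. None of these was made absent from a group, so that test does not cover genes like the members. Alternatives used DESeq2 1.42.0, limma 3.58.1, other filters, a replicate block, only the groups compared, CCND2wt summed, and each library left out. SE was the log2 fold change over the root of F. Ratios of summed reads carry exact 95% intervals, which like the floor of 3 reads cover counting error only. Named were all members, relatives past the threshold (SOXB and nuclear factor I genes regardless), nearest coding genes, genes within 500 kb past the threshold, and the 2 closest profiles per member; Drp2, Kcnj10, Kcnj14 and other relatives appear only in the plot of relatives. Gprc5a, Kcnj5, Hmcn1 and the marker genes given with values are named outside this rule, chosen after their values were seen. The members and lists were chosen with earlier results of these data known.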

Additional observations from a re-analysis of the deposited data

How the results depend on the processing

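Of the members' 232 alternative values, 212 kept direction and side of the threshold, 20 no longer passed and 0 reversed. All of them compare CCND2mut with a group by which the members were chosen, so the number kept is a description. Of 864 for other genes, 739 were kept, 112 no longer passed, 10 newly passed and 3 reversed: Zdhhc21 was -0.11 with the replicate block, -0.0192 without Vec 1 and -0.0194 without Vec 1 and CCND2mut 1 together, a setting chosen after seeing the data (over all left-out libraries, -0.0192 to 0.185). In CCND2mut against Vec 5 members passed, beside 51.8% of all tested genes, Prtg and Gprc5c among them through the reads of CCND2wt in the filter. With the replicate block 3 passed (43.1% of all genes), and with only the 2 groups compared 3 (41.2%). With a library left out 3 to 4 passed (43.9% to 50.6% of all genes). All 8 passed in CCND2mut against CCND2wt with any library left out (34.6% to 48.4% of all genes), and 7 without a filter (22.0%). The choice by CCND2wt values favours these calls, and nothing is read from them. With CCND2wt summed to 1 sample the fitted change was -3.34 for Anpep and -2.48 for Nfib, and calls of members are not read there. Of 30 tested relatives, 6 passed in CCND2wt against Vec, beside 18.8% of all tested genes. With only the 2 groups compared 10 of 26 passed (29.1% of all genes), and without Vec 1 and CCND2mut 1 10 of 30 (27.8%). With a library left out 3 to 9 passed (6.21% to 23.4% of all genes). In CCND2mut against Vec 14 to 20 relatives passed, against 17, beside 24.4% to 54.5% of all genes over the settings. Over all genes, 2938 passed in CCND2wt against Vec, 1636 with the block, 39 with CCND2wt summed, 4470 without Vec 1 and CCND2mut 1, and 1019 to 3817 with a library left out; in CCND2mut against CCND2wt 7360 passed, and 2378 with CCND2wt summed. Summing leaves fewer samples; the cause of the other changes was not tested. Samples of the same number share only a number: their deviations correlated between -0.0727 and 0.187, so they were not treated as paired. Below 3 reads per library, 0.159 to 0.204 CPM, levels of the members could not be told from 0.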

Other observations

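Few other genes shared the limits set by the 8 members, a Vec mean of at most 0.143 CPM and a CCND2wt mean of at least 6.51 CPM. They were 8 genes, 6 of them protein-coding: Cald1, Slc6a4, Cdkn2a, the catenin Ctnna2, and the semaphorins Sema6a and Sema5a, which guide axons. Of these 6, Slc6a4 and Cdkn2a averaged above 6.51 CPM in CCND2mut as well, and Ctnna2 and Sema6a had no read there. Sema5a had 26, 0 and 0 reads in CCND2mut 1, 2 and 3, 174, 123 and 80 in CCND2wt 2, 3 and 4, and 1, 0 and 2 in Vec 1, 2 and 4. Together with the members they make 14 protein-coding genes, of which Anpep and Sox21 were the most abundant by CPM and Kcnj3 the least, and 2 carry a transcription factor family in the file (Sox21, HMG; Nfib, CTF/NFI). With CCND2mut in place of CCND2wt, the same limits held 57 protein-coding genes. These limits were drawn from the members' own values and the counts are a description.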
